A study of Arabidopsis thaliana with 6 samples.

Results

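GDSL-type esterases/lipases were examined here across 35S::CLE41 and wild-type (WT) inflorescence stems of *Arabidopsis thaliana*, ecotype Columbia. Starting from 60 listed loci, the members were the 50 with a probe set tied to that gene alone, out of 13286 genes with such a probe set in the probe table. That table gave no gene for 8730 of the 22746 probe sets, so genes missing from it may still be on the array. Of the other 10 loci, 6 shared a probe set with another gene, and *LTL1*, *ESM1*, *FXG1* and *CDEF1* had none in the probe table and were not analysed here. Each member had 1 probe set, and the family assignment of each locus was taken as given, since no protein sequence was used here.

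The 35S::CLE41 plants, made in the Columbia background, carry *CLE41* under the 35S promoter, which comes from a plant virus and is active in nearly all cell types. *CLE41* encodes the secreted peptide TDIF, which the phloem normally makes and the receptor kinase PXY perceives in the vascular cambium. The control plants are labelled wild type; plants of both genotypes were 5 weeks old, grown in 16 h of light and 8 h of dark, and RNA was taken from the lower part of the stem, leaving out the 1 cm above the rosette. There were 3 arrays of 35S::CLE41 stems and 3 of WT stems, and the labels say neither how many transgenic lines were used nor whether samples came from separate plants, so the p-values rest on a spread between samples that may be technical. All values are log2 of a normalized intensity, and "rose" and "fell" are used only where the adjusted p of limma's moderated test, adjusted by Benjamini-Hochberg across the 22746 probe sets, was under 0.05.

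GDSL enzymes are hydrolases named for a motif of glycine, aspartate, serine and leucine that holds the catalytic serine. Most carry a signal peptide and are secreted, and plants have far more of them than animals. Known members of the family link cutin monomers into the polyester of the cuticle (shown for the cutin synthase of tomato), break down cutin, act on seed oil, remove acetyl groups from wall polysaccharides, or take part in defence. In a stem the cuticle lies on the outer wall of the epidermis and is made of cutin and waxes. Of the 50 members, RefSeq gives 1 a gene name, *RXF26* (AT1G58430), and the others are given by locus. Roles described elsewhere for some of them are left out here.

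Of the 50 members, 17 fell, 4 rose and 29 were not called. Among all 13286 genes 5.58% fell and 7.03% rose, while 34% of the members fell and 8% rose. In either direction 42% of the members were called, against 12.6% of all genes. The members were chosen with earlier results of these data known, so these shares are a description and not a test. Falls of 2-fold or more were seen in 13 members, 26%, against 1.71% of all genes. A rise of 2-fold or more was seen in 1 member, 2%, close to the 1.78% of all genes. Every 35S::CLE41 array lay below every WT array for 21 members, 42% (14.6% of all genes), and above every WT array for 7, 14% (17.4% of all genes). The difference was below 0 for 33 of the 50 members, 66%, and for 50.6% of all genes. Over all members the median log2 difference was -0.13, against -0.0030 over all genes, with quartiles at -1.06 and 0.05. In the plot of differences with their confidence intervals, the falls extend further from 0 than the rises.

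**Figure D1:**
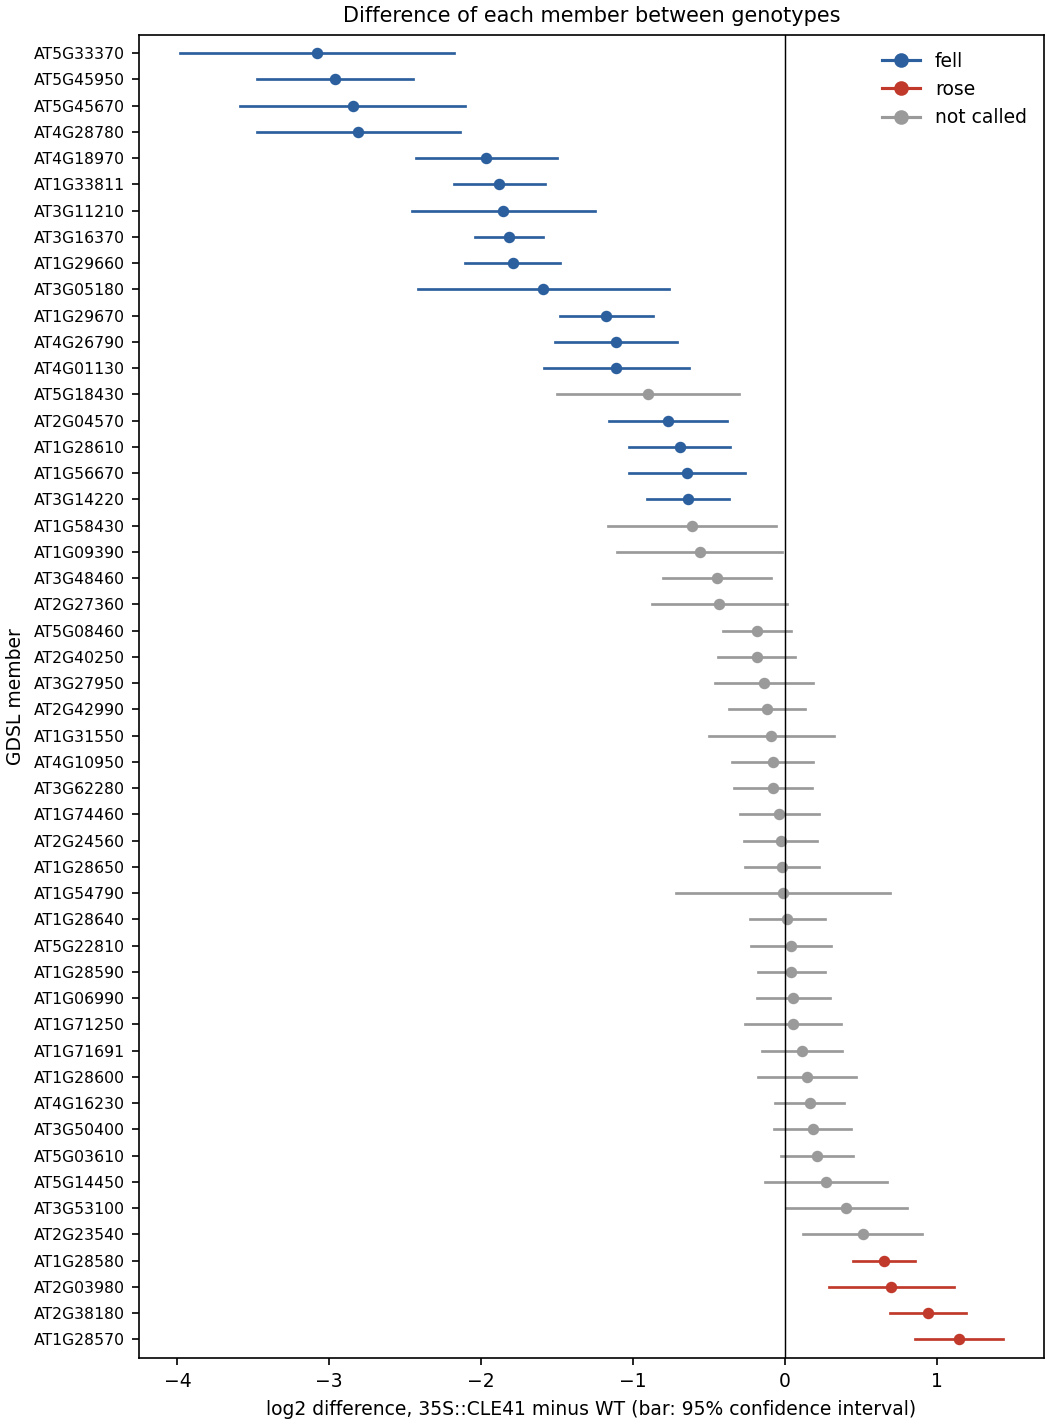
Log2 difference (35S::CLE41 minus WT, x axis) of each of the 50 GDSL members (y axis), with the 95% confidence interval of the limma fit as a bar; blue members fell, red ones rose, grey ones were not called. The falls reach -3.08 in AT5G33370, and the largest rise is 1.15 in AT1G28570.

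*CLE41* itself checked the labels. Its log2 intensity was 11.27, 11.73 and 11.38 in 35S::CLE41 stems, against 9.68, 9.42 and 9.98 in WT stems, a difference of 1.77 (SE 0.18; limma adjusted p = 0.0013). WT replicate 2 stood apart from the other WT arrays: 365 probe sets differed at least 2-fold from their mean, against 32 to 100 for the other arrays taken against their own genotype in the same way. Among the members it did so for 4. It was the highest WT array for 13 of the 17 members that fell, and without it 16 of those 17 fell again, 12 members fell by at least 2-fold, and 18 members fell in all. Values without that array are given below wherever they end a call.

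The 4 largest falls were 7-fold or more and left the 35S::CLE41 arrays well below the WT arrays. AT5G33370 had a log2 intensity of 5.40, 5.57 and 6.52 in 35S::CLE41 stems, against 8.52, 9.71 and 8.50 in WT stems. AT5G45950 had 6.27, 6.35 and 6.64 in 35S::CLE41 stems and 9.12, 9.91 and 9.12 in WT stems. In both genes WT replicate 2 was the high WT array, and even the highest 35S::CLE41 array lay almost 2 log2 units or more below the lowest WT array. AT5G33370 fell by 3.08 (SE 0.39; limma adjusted p = 0.00279), 8.46-fold (difference -2.68 without WT replicate 2). AT5G45950 fell by 2.96 (SE 0.22; limma adjusted p = 0.000531), 7.80-fold (difference -2.70 without that array).

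AT5G45670 read 4.82, 4.46 and 5.01 in 35S::CLE41 stems, against 7.30, 8.41 and 7.13 in WT stems. AT4G28780 read 5.29, 5.67 and 5.13 in 35S::CLE41 stems, against 8.25, 8.74 and 7.52 in WT stems. The 35S::CLE41 arrays of both genes sat near or under 5.67, the edge of the dimmest 40% of probe sets by mean log2 intensity. No detection call was used here, so how far above background such dim signals lie is not known. AT5G45670 fell by 2.85 (SE 0.32; limma adjusted p = 0.00189), 7.19-fold. AT4G28780 fell by 2.81 (SE 0.29; limma adjusted p = 0.00142), 7.01-fold.

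**Figure D2:**
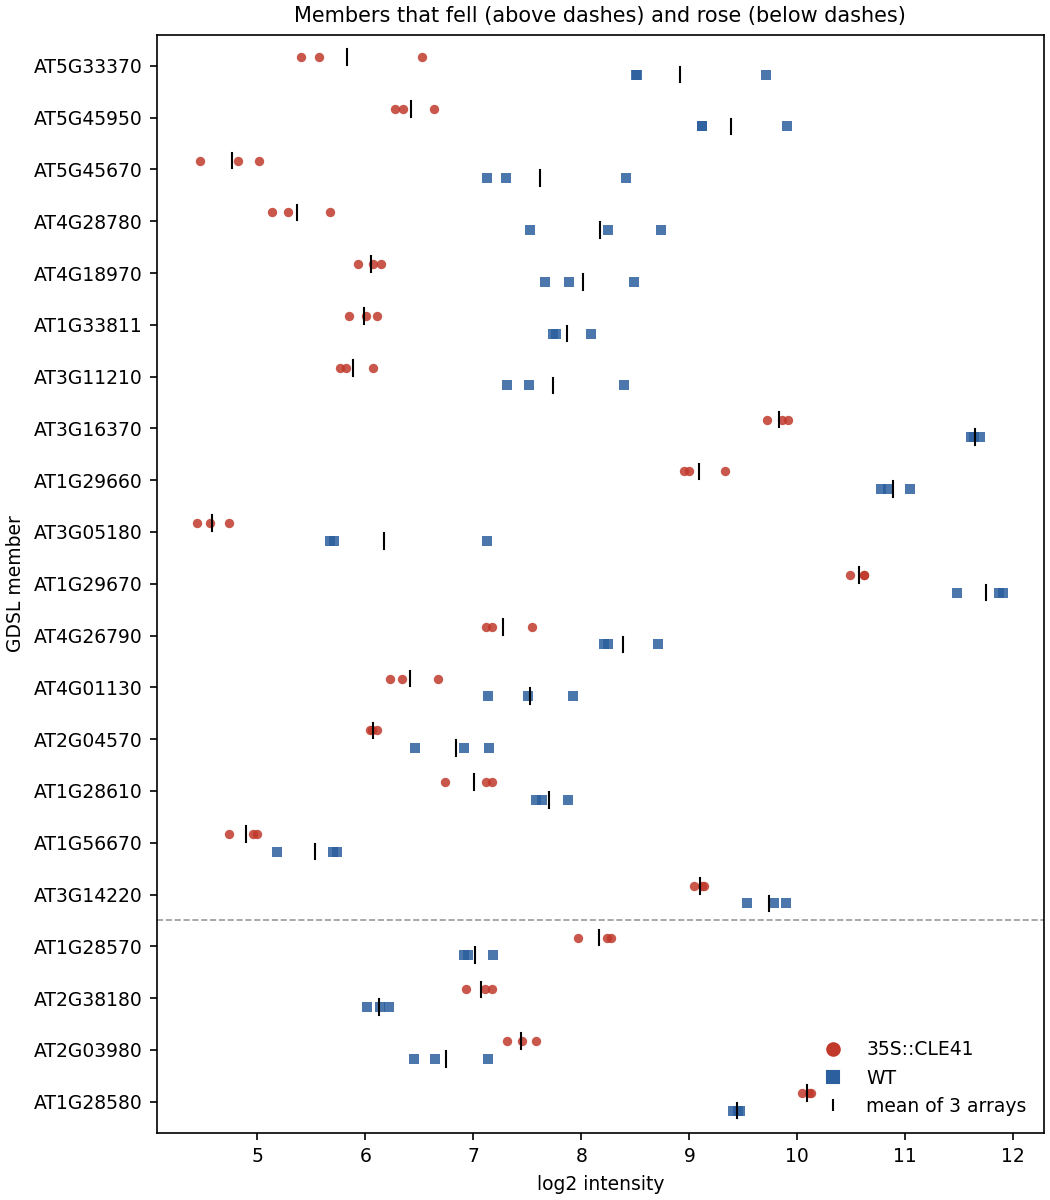
Log2 intensity (x axis) of the 17 members that fell (above the dashed line) and the 4 that rose (below it), 1 row a gene; red circles are the 3 arrays of 35S::CLE41 stems, blue squares the 3 of WT stems and black ticks the means. In each of the 21 rows the arrays of the genotypes are apart, and WT replicate 2 is the far blue square in several of the upper rows, such as AT3G05180 with 7.13.

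A second tier of 6 members fell 3-fold to 4-fold. AT4G18970 had a log2 intensity of 5.93, 6.14 and 6.07 in 35S::CLE41 stems, against 7.67, 8.49 and 7.89 in WT stems, and fell by 1.97 (SE 0.20). AT1G33811 had 6.11, 6.00 and 5.85 in 35S::CLE41 stems, against 7.74, 8.09 and 7.77 in WT stems, and fell by 1.88 (SE 0.13). AT3G11210 had 5.76, 5.82 and 6.07 in 35S::CLE41 stems, against 7.31, 8.39 and 7.51 in WT stems, and fell by 1.85 (SE 0.26). In these 3 genes the 35S::CLE41 arrays lay close together and WT replicate 2 was the highest WT array; without it the differences were -1.73, -1.77 and -1.53.

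AT3G16370 and AT1G29660 fell by a like amount, with bright signals on all arrays. AT3G16370 had 9.92, 9.86 and 9.72 in 35S::CLE41 stems, against 11.61, 11.63 and 11.69 in WT stems. AT1G29660 had 8.99, 9.33 and 8.95 in 35S::CLE41 stems, against 10.77, 11.04 and 10.84 in WT stems. The WT arrays of AT3G16370 were within 0.1 of each other, replicate 2 included, and its fall of 1.81 (SE 0.10; limma adjusted p = 0.000226), 3.52-fold, had the smallest adjusted p of all members. AT1G29660 fell by 1.79 (SE 0.13; limma adjusted p = 0.000544), 3.46-fold. AT3G05180, in contrast, was dim: it had 4.56, 4.44 and 4.74 in 35S::CLE41 stems, against 5.68, 7.13 and 5.71 in WT stems, so that WT replicate 2 stood 1.43 above the other WT arrays. It fell by 1.59 (SE 0.36; limma adjusted p = 0.0237), with a difference of -1.12 (adjusted p = 0.00135) without WT replicate 2. Leaving out any 1 of the 35S::CLE41 arrays ended its call, with adjusted p reaching 0.0891.

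Another 7 members fell by smaller amounts. AT1G29670, the direct neighbour of AT1G29660 on the chromosome, had 10.62, 10.49 and 10.62 in 35S::CLE41 stems, against 11.86, 11.91 and 11.48 in WT stems, and fell by 1.18 (SE 0.13). AT4G26790 had 7.55, 7.12 and 7.17 in 35S::CLE41 stems, against 8.71, 8.25 and 8.21 in WT stems, and fell by 1.11 (SE 0.17). AT4G01130 had 6.34, 6.23 and 6.67 in 35S::CLE41 stems, against 7.51, 7.92 and 7.14 in WT stems, and fell by 1.11 (SE 0.21). The falls of these 3 genes were just over 2-fold, and in AT4G26790 it was WT replicate 1, not 2, that was highest. Without 35S::CLE41 replicate 2 the call of AT4G01130 was lost (adjusted p = 0.0548).

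The least falls were under 2-fold. AT2G04570 had 6.04, 6.11 and 6.06 in 35S::CLE41 stems, against 6.46, 7.15 and 6.91 in WT stems (difference -0.77, SE 0.17). AT1G28610 had 7.17, 6.74 and 7.11 in 35S::CLE41 stems, against 7.58, 7.64 and 7.88 in WT stems (difference -0.69, SE 0.14). AT1G56670 had 4.99, 4.96 and 4.73 in 35S::CLE41 stems, against 5.74, 5.70 and 5.18 in WT stems (difference -0.64, SE 0.17). Each of these 3 calls depended on single arrays. For AT2G04570 it ended without any 1 of the 35S::CLE41 arrays or WT replicate 3 (adjusted p reaching 0.0699), and for AT1G28610 without WT replicate 3 (adjusted p = 0.0509). For AT1G56670, a dim gene, it was lost without any single array other than WT replicate 3 (adjusted p up to 0.121), that is also without WT replicate 2 (adjusted p = 0.0781).

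AT3G14220, which lies next to *ESM1*, the epithiospecifier modifier gene of glucosinolate breakdown, had 9.13, 9.12 and 9.04 in 35S::CLE41 stems, against 9.53, 9.89 and 9.79 in WT stems. The arrays of each genotype were tight, and the fall of 0.64 (SE 0.12; limma adjusted p = 0.0114) was kept without each single array (adjusted p up to 0.0455). Adjusted p over the 17 falling members ran from 0.000226 to 0.0382. Of the 17 calls, 12 were kept without each single array in turn.

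Of the 4 members that rose, AT1G28570 rose most. It had 8.27, 8.24 and 7.97 in 35S::CLE41 stems, against 7.18, 6.91 and 6.95 in WT stems, and rose by 1.15 (SE 0.12; limma adjusted p = 0.00162), 2.21-fold. AT2G38180 had 7.11, 7.17 and 6.93 in 35S::CLE41 stems, against 6.14, 6.22 and 6.02 in WT stems, and rose by 0.94 (SE 0.11; limma adjusted p = 0.00202), 1.92-fold. Both rises were clear of the spread in each genotype and were kept without each single array. AT1G28580 had 10.13, 10.11 and 10.04 in 35S::CLE41 stems, against 9.45, 9.47 and 9.40 in WT stems, and rose by 0.65 (SE 0.09; limma adjusted p = 0.00385), with less than 0.1 between the arrays of a genotype. AT2G03980 had 7.45, 7.58 and 7.31 in 35S::CLE41 stems, against 7.14, 6.45 and 6.64 in WT stems, a rise of 0.70 (SE 0.18; limma adjusted p = 0.0367) that was lost without any single array other than WT replicate 1 (adjusted p up to 0.123), and so also without WT replicate 2 (difference 0.55, adjusted p = 0.0655).

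AT1G28570 and AT1G28580 are direct neighbours at one end of a run of 9 listed loci, AT1G28570 to AT1G28670, interrupted by 1 other protein-coding gene. Its 7 members with their own probe set went different ways: 2 rose, 1 fell and 4 were not called. After AT1G28570 and AT1G28580 comes AT1G28590, with values from 4.17 to 4.29 in 35S::CLE41 stems and from 4.14 to 4.28 in WT stems. AT1G28600 had 7.17, 6.99 and 7.25 in 35S::CLE41 stems, against 7.15, 6.72 and 7.10 in WT stems, overlapping arrays with a difference of 0.14 (95% confidence interval -0.18 to 0.47). Next in line AT1G28610 fell, as given above, and AT1G28640 and AT1G28650 were as dim as AT1G28590: the 3 dim genes read between 3.57 and 4.29 on every array. The last loci of the run, AT1G28660 and *ARAB-1* (AT1G28670), share a probe set that was lower in 35S::CLE41 stems, at 5.99, 5.61 and 5.86, against 6.93, 7.53 and 6.80 in WT stems. That shared signal fell by 1.27 (SE 0.20; limma adjusted p = 0.00643), and which of the pair it came from cannot be told. Whether probes of such close relatives read each other's transcripts was not tested.

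**Figure D3:**
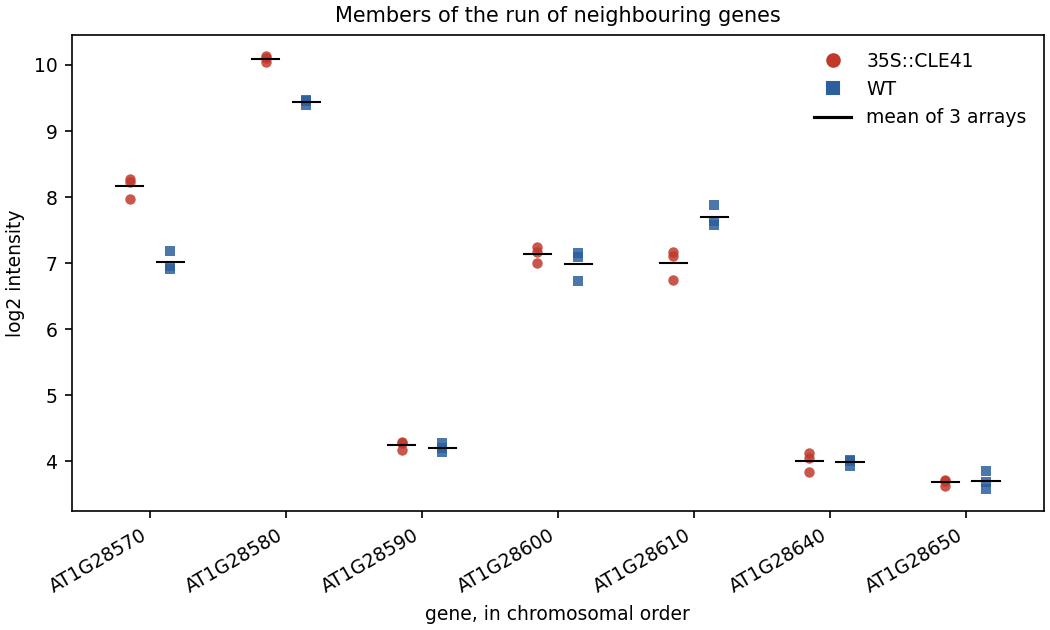
Log2 intensity (y axis) of the 7 members with their own probe set in the run AT1G28570 to AT1G28670, in chromosomal order (x axis); red circles are 35S::CLE41 arrays, blue squares WT arrays and black bars the means of 3. AT1G28570 and AT1G28580 are higher in 35S::CLE41, AT1G28610 is lower, AT1G28600 overlaps, and 3 genes lie under 4.3 in both genotypes.

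The other neighbouring pair in which each gene had its own probe set, AT1G29660 and AT1G29670, both fell, with differences of -1.79 and -1.18. The 95% confidence intervals of these falls, -2.10 to -1.48 and -1.48 to -0.87, met at one end.

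Of the 29 members that were not called, 20 read under 5.67 on all 6 arrays, with values from 3.57 to 5.26. Whether these genes are transcribed in the stem or read only background cannot be said from these values. Their differences ran from -0.90 to 0.51. AT5G18430 was at the low end of that range. It had 3.77, 3.61 and 3.70 in 35S::CLE41 stems, against 4.36, 5.26 and 4.16 in WT stems (difference -0.90, SE 0.26; limma adjusted p = 0.055), and passed the threshold without WT replicate 2 (difference -0.57, adjusted p = 0.0185). *RXF26* had 3.99, 3.78 and 4.32 in 35S::CLE41 stems, against 4.34, 5.18 and 4.39 in WT stems (difference -0.61, SE 0.24; limma adjusted p = 0.135). At the high end AT2G23540 had 4.52, 4.03 and 3.84 in 35S::CLE41 stems, against 3.66, 3.59 and 3.61 in WT stems (difference 0.51, SE 0.17; limma adjusted p = 0.0845), with 35S::CLE41 replicate 1 the highest. AT2G42990 differed by -0.12 (95% confidence interval -0.37 to 0.13).

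The other 9 members not called had a mean signal above 5.67, and here the intervals limit the size of any difference. AT5G03610 had 9.84, 9.82 and 9.97 in 35S::CLE41 stems, against 9.67, 9.56 and 9.78 in WT stems (difference 0.21, interval -0.03 to 0.45), so its whole interval lay above that of AT1G29660, -2.10 to -1.48. AT1G31550 had 8.41, 9.08 and 9.02 in 35S::CLE41 stems, against 8.98, 8.95 and 8.85 in WT stems (difference -0.09, interval -0.50 to 0.32). AT1G54790 had 8.22, 7.56 and 8.05 in 35S::CLE41 stems, against 7.94, 7.35 and 8.58 in WT stems, with a wide spread in each genotype and an interval of -0.72 to 0.69. AT3G48460 had 5.65, 5.66 and 5.36 in 35S::CLE41 stems, against 6.26, 5.74 and 6.01 in WT stems. Its difference of -0.45 (SE 0.15; limma adjusted p = 0.0948) became -0.58 (adjusted p = 0.0327) without WT replicate 2. The remaining 5, AT1G09390, AT2G27360, AT1G28600, AT5G14450 and AT3G53100, differed by -0.56, -0.43, 0.14, 0.27 and 0.40. The intervals of AT1G09390 (-1.10 to -0.02) and AT3G48460 (-0.81 to -0.09) lay wholly below no difference. That of AT3G53100 (0.004 to 0.80) lay wholly above it. These intervals are not adjusted for the number of probe sets.

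Most calls lay above the dim edge. Of the 28 members whose mean over the 6 arrays lay above 5.67, 15 fell and 4 rose, while among all genes above it 9.1% fell and 11.2% rose. That mean takes in both genotypes, so a gene can pass through its WT arrays. Among the falls AT5G45670 and AT4G28780 did so, with means of 4.77 and 5.36 in 35S::CLE41 stems, against 7.61 and 8.17 in WT stems. Of the 22 members below it 2 fell (AT3G05180 and AT1G56670) and 0 rose by limma (1 at an unadjusted p under 0.05), where 1.34% of genes below it fell and 1.97% rose. The 4 members with the highest WT signal, AT1G29670, AT3G16370, AT1G29660 and AT3G14220, all fell, and the fifth, AT5G03610, was not called. WT signal is itself part of the difference, so picking by it favours falls, and the share among all genes picked this way was not computed. Probe sets differ in how strongly they bind, so these levels do not rank the genes by abundance.

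**Figure D4:**
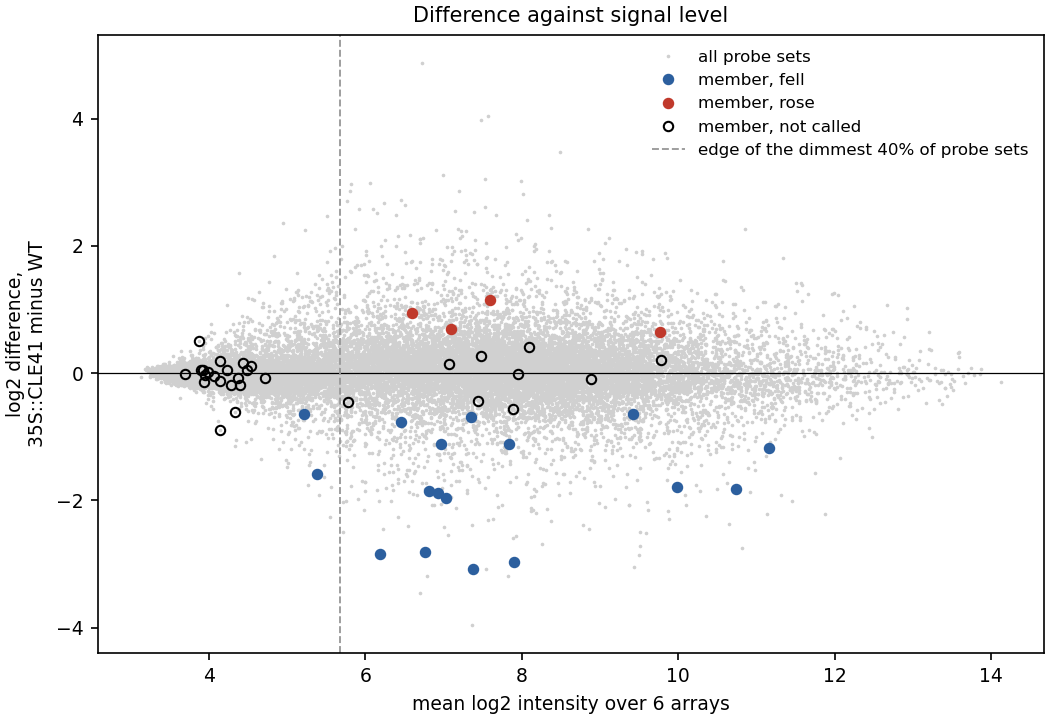
Log2 difference (35S::CLE41 minus WT, y axis) against the mean log2 intensity over 6 arrays (x axis) for all 22746 probe sets (grey) and the 50 members, with the edge of the dimmest 40% at 5.67 as a dashed line. Most members left of the line are open circles near 0, 2 falls (blue) lie left of it, and the other 15 run from near the line to AT3G16370 and AT1G29670 at the bright end.

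Genes of the pathways in which GDSL enzymes act were thinly covered, with 10 of 98 listed genes measured, of which 2 fell and 0 rose by limma (3 were higher at an unadjusted p under 0.05). None of 17 cutin and cuticle export genes had a probe set of its own in the probe table. Of the wax genes 1 of 16 was measured: *WSD1*, encoding the wax ester synthase of the stem, fell by 3.08 (SE 0.24), with 6.15, 5.70 and 6.15 in 35S::CLE41 stems, against 9.07, 9.57 and 8.60 in WT stems. Of 15 cuticle regulators 2 were measured. *SHN3*, an AP2/ERF factor that promotes cuticle formation, had 7.84, 7.14 and 7.17 in 35S::CLE41 stems, against 8.29, 8.44 and 8.03 in WT stems, and fell by 0.87 (SE 0.20; limma adjusted p = 0.0274), a call lost without WT replicate 2 (adjusted p = 0.0542), WT replicate 1, 35S::CLE41 replicate 2 or 35S::CLE41 replicate 3 (highest adjusted p 0.099). *DEWAX* (AT5G61590), a repressor of wax synthesis genes, had 10.49, 10.93 and 10.81 in 35S::CLE41 stems, against 10.30, 9.93 and 10.36 in WT stems (difference 0.55, SE 0.16; limma adjusted p = 0.0564).

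Outside the cuticle no listed gene was called. The suberin gene *FACT*, 1 of 12 listed, differed by 0.02, and *PYK10*, a beta-glucosidase and the 1 measured of 15 glucosinolate breakdown genes, by 0.05. Both were dim, with means of 4.38 and 4.07 in 35S::CLE41 stems and 4.36 and 4.02 in WT stems. Whether they read more than background is not known. *BCAT4* and *UGT74B1* of glucosinolate synthesis, 2 of 13, differed by 0.60 (SE 0.20; limma adjusted p = 0.0844) and 0.35. Of 10 genes of seed oil breakdown, 3 were measured, and the lipase gene *SDP1* and the isocitrate lyase gene *ICL* differed by 0.13 and -0.24. *ICL* was dim as well, with means of 4.93 in 35S::CLE41 stems and 5.17 in WT stems.

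In bulk stems, fewer cells of a type and less RNA per cell cannot be told apart, and the values of cell type markers are set here beside those of the members. Of 10 epidermal markers 2 were measured, and their summed linear intensity was 81.4 to 104 in 35S::CLE41 stems, against 425 to 796 in WT stems. *WSD1* made up 63.8% to 70.0% of that sum in 35S::CLE41 stems and 91.4% to 95.4% in WT stems. *CR4*, an epidermal receptor kinase gene, was dim and differed by -0.22 (SE 0.09; limma adjusted p = 0.171). For 2 of 10 markers of photosynthetic tissue the sum was 5827 to 6706 in 35S::CLE41 stems, against 7640 to 9439 in WT stems, and *SBPASE*, of the Calvin cycle, fell by 0.66 (SE 0.11). The xylem markers *GUT2* and *IRX15*, 2 of 11, summed to 2320 to 3298 in 35S::CLE41 stems and 985 to 2396 in WT stems, with the lowest value in WT replicate 2. The phloem markers, 2 of 8, summed to 144 to 196 in 35S::CLE41 stems and 138 to 155 in WT stems, and the stomatal markers, 3 of 9, to 93.7 to 112 in 35S::CLE41 stems and 108 to 121 in WT stems. Of the stomatal markers *SPCH* and *MUTE* were among the dimmest 40%, and the WT mean of the phloem marker *OPS*, 5.53, lay under 5.67. The cambium marker *MOL1*, 1 of 9, rose by 0.51 (SE 0.12; limma adjusted p = 0.0267), a call lost without 35S::CLE41 replicates 1 or 2 or WT replicates 1 or 3 (highest adjusted p 0.0904). *EXPA7*, the 1 measured of 8 root markers, read 25.0 to 29.0 in 35S::CLE41 stems and 21.7 to 32.6 in WT stems on the linear scale, among the dimmest 40%, and no flower marker was measured. The part of these cell types in the falls of the GDSL members was not tested.

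**Figure D5:**
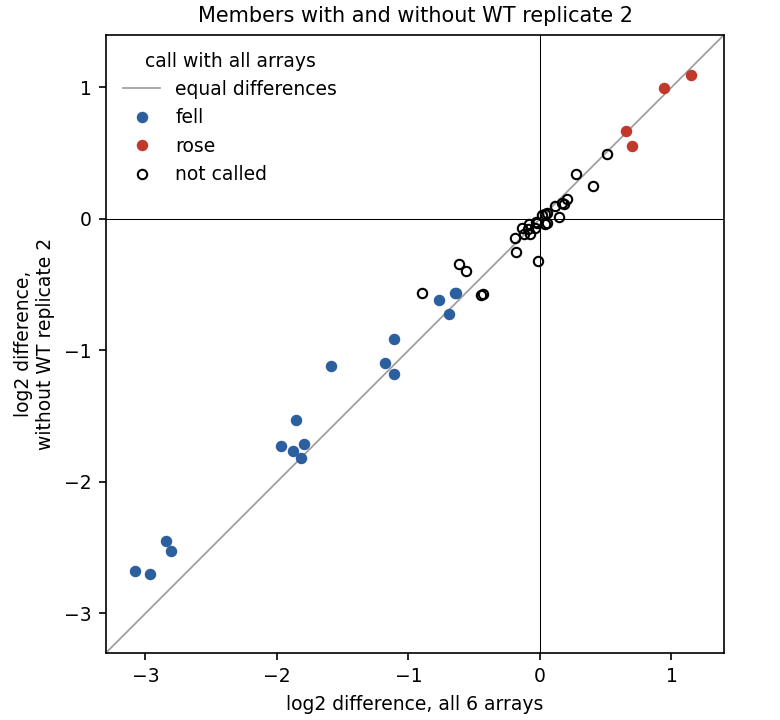
Log2 difference (35S::CLE41 minus WT) of the 50 members from all 6 arrays (x axis) and without WT replicate 2 (y axis), coloured by their call with all arrays; the grey line marks equal differences. The blue points lie on or above the line for 14 of 17 falls, as AT3G05180 at -1.59 and -1.12, and each stays below 0.

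Leaving out WT replicate 2 made 14 of the 17 falls smaller and 3 larger. The 3 that grew were AT4G26790, AT3G16370 and AT1G28610, in none of which WT replicate 2 was the highest WT array. Over the falling members that array stood between -0.21 and 1.43 from the mean of the other WT arrays, with a median of 0.46. The median was 0.026 over all 50 members and 0.014 over all genes. The falls were called on the WT values themselves, so their median is not a like comparison with these.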

How the data were processed

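Per the labels' protocols, stem RNA was extracted with Trizol, labelled with biotin by a 2-cycle protocol and hybridised to 1 array a sample. The authors deposited 1 normalized intensity per probe set and array on a linear scale; the submitters' processing notes name RMA and limma, without saying how either was used. RMA values are usually on the log2 scale, and how these came to be linear is not stated. Median intensity was 97.4, 101 and 97.6 on the 35S::CLE41 arrays, against 96.3, 92.1 and 91.9 on the WT arrays. Each 35S::CLE41 array thus had a higher median than each WT array, an offset that cannot be told apart from genotype. Results with the arrays shifted to one median are given below. The number of arrays limits the precision.

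The log2 of each deposited value entered a limma 3.58.1 fit under R 4.3.3 (lmFit, then eBayes, with genotype as the factor). Its two-sided p-values were adjusted by Benjamini-Hochberg across the 22746 probe sets. SE and 95% confidence intervals are those of the moderated fit. With 3 arrays against 3, exact permutation of a single probe set reaches p = 0.1 at the lowest, so none was run. Of the probe sets, 13513 had 1 gene in the platform annotation, 503 several and 8730 none; 13436 were matched to the RefSeq table (TAIR10.1) for names, giving 13286 genes, each by its brightest probe set. Gene order on the chromosomes was taken from the start positions in the RefSeq table. No sequences were used, so the planned look at protein and promoter sequences was not made. The fit was also run on simulated data with independent noise for each probe set and array, and the outcome is not given here. That simulation held no array-wide shift and no array standing apart, so it does not speak to WT replicate 2.

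Members and lists were chosen with earlier results of these data known. Values are given for each called member, 10 loci picked for roles described elsewhere, the 5 members with the highest WT signal and the run of neighbouring genes. Of the 10 loci, *LTL1*, *ESM1*, *FXG1* and *CDEF1* had no probe set in the table. The others were AT5G33370, AT1G54790, AT1G58430, AT2G42990, AT3G48460 and AT4G18970. From each list up to 4 called genes, or the 2 with the smallest p, were named. Some of the other members not called, the shared probe sets and *ARAB-1* were also named, a choice made with their values in view. The rest of the members not called are covered only by the ranges given and the figures. Alternatives tried were a block for the replicate number, other scalings, a filter on dim probe sets, eBayes with trend and robust, array weights, the mean of a gene's probe sets, a stricter threshold and leaving out each array. Figures were drawn with matplotlib 3.10.9.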

Additional observations from a re-analysis of the deposited data

How the results depend on the processing

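Over 628 values of the 50 members under alternatives, 598 kept their call status, 20 were no longer called and 10 became called. The 628 include 50 from averaging a gene's probe sets, which could not move a member's difference and so say nothing on stability. Of the 598, 573 also kept their direction and 25 changed sign, all of members not called. Falling members numbered 17 to 19, and rising ones 3 to 5, under the settings that kept all arrays, all probe sets and the threshold. Without single arrays 14 to 18 fell and 3 to 4 rose. At an adjusted p of 0.01, 11 fell and 3 rose; a difference of at least 2-fold, a choice made after seeing the data, left 13 and 1. The median difference of the members was -0.21 with arrays shifted to one median and -0.67 without the dimmest probe sets, which leaves 28 members; without single arrays it ran from -0.19 to -0.098. Over all probe sets 1561 fell and 1803 rose, but 1975 and 1392 with arrays shifted to one median, and 622 and 503 at an adjusted p of 0.01. Without single arrays 917 to 1382 fell and 770 to 1490 rose. Of the pathway genes 2 fell and 0 rose by limma. With eBayes trend and robust, and without the dimmest probe sets, 1 rose (*DEWAX*); at an adjusted p of 0.01, 1 fell; without single arrays 1 to 2 fell and 0 to 1 rose.

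Deviations of same-numbered samples from their genotype means correlated at -0.01, 0.08 and -0.092, and those of differently numbered samples at -0.10 to 0.14. With 3 samples a genotype, these values cannot tell whether same-numbered samples were handled together. With the replicate block 18 members fell and 4 rose, AT1G09390 being the added fall, and 1390 probe sets fell and 1507 rose. Averaging a gene's probe sets changed no member, since each had 1. Probe sets in the dimmest 40% limit what can be seen for 22 members.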

Other observations

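Listed GDSL loci that share a probe set gave further values besides that of AT1G28660 and *ARAB-1*. The probe set of AT2G30310 and AT2G30220 read 3.54, 3.63 and 3.53 in 35S::CLE41 stems, against 3.63, 3.58 and 3.62 in WT stems. That of AT2G31550 and AT2G31540 read 4.10, 4.40 and 4.05 in 35S::CLE41 stems, against 4.19, 3.93 and 4.23 in WT stems. Both lie among the dimmest 40% of probe sets. AT3G26430 shares 2 probe sets with *ATRZ-1A*, and these differed by -0.05 (SE 0.15) and -0.04 (SE 0.16). Beyond the 60 loci, RefSeq names 11 genes as GDSL or extracellular lipases, *GLIP1* to *GLIP7* among them, none of which had a probe set of its own in the table used here.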
